A study of Mus musculus with 6 samples.

Results

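The gene group described here is the stress-driven programme of amino acid synthesis under the transcription factor ATF4, in C2C12 myotubes with and without knockdown of *Dj1*. Its members were chosen by gene name, ignoring case, from the names listed with each probe of the array, and each probe was kept apart. All 10 genes (ATF4, ATF5, DDIT3, TRIB3, CHAC1, ASNS, PSAT1, PHGDH, SHMT2 and MTHFD2) were found, out of 30854 listed names, with 18 of the 45281 probes. All 18 passed the filter on dim probes, which kept 17890 probes for testing. It asks that at least 3 of the 6 arrays give a detection p below 0.05, where the detection p is the chance that a negative control is as bright as the probe.

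C2C12 cells are mouse myoblasts of an established line, which form myotubes by fusion once growth serum is replaced by horse serum. The cells received 60 nM of a scramble siRNA (group Scramble, 3 samples) or of an siRNA directed against *Dj1* (group siDJ-1, 3 samples), delivered by the same lipid reagent. In both groups differentiation began 48 h after transfection and went on for 96 h. Labelled RNA of each sample went onto its own array, all 6 on a single Illumina mouse BeadChip. The median standard error over beads of the 18 probes was 6.35%, 4.50% and 5.27% of their signal for Scramble and 4.08%, 3.68% and 4.11% for siDJ-1, and each probe rested on at least 19 beads per array. Bead error was larger on every control array, and its part in the results was not tested. Precision is limited by the number of arrays. With 1 siRNA per group, loss of *Dj1* and any effect of that siRNA on other transcripts cannot be told apart. The labels number the replicates without saying how the cultures were kept apart, so p-values measure the spread between these samples, which may be technical.

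ATF4 is the central transcription factor of the integrated stress response. Kinases that sense unfolded protein, amino acid shortage, double-stranded RNA or haem shortage and mitochondrial stress phosphorylate the translation factor eIF2α, which lowers protein synthesis in general and raises translation of ATF4 messenger RNA, so that ATF4 protein can change without its transcript. ATF4 protein then binds as a dimer with other bZIP factors to composite C/EBP-ATF elements and switches on genes for serine, one-carbon and asparagine metabolism, amino acid transport and, through DDIT3 (CHOP), cell death. In muscle the same programme responds to mitochondrial defects.

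The promoters show which members carry such an element near their start. RefSeq promoter windows (GRCm38.p6), from 250 bases before to 50 bases after a transcription start, were matched for all 10 genes, with 12 windows in all. The element TGATGNAA, or TTNCATCA on the other strand, was found in 3 genes, Asns, Chac1 and Trib3, and in none of the windows of the other 7. It occurs in 3.97% of all 32851 windows and in 4.51% of the 27025 genes that have one. In Trib3 it begins at position 15 after the start. The upstream sequences of Chac1 and Asns are printed because Chac1 was called lower in siDJ-1 myotubes and no Asns probe was called. Each is the 250 bases before the start, 5′ to 3′ on the gene's strand, with the element in capitals, beginning at position -193 for Chac1 (chr2:119350992-119351241, plus strand) and -23 for Asns (chr6:7693210-7693459, minus strand).
Chac1: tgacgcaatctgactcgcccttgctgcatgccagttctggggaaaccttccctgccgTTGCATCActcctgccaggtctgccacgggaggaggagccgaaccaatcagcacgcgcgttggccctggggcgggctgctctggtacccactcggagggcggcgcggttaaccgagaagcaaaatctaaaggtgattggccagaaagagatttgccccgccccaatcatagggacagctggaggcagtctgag
Asns: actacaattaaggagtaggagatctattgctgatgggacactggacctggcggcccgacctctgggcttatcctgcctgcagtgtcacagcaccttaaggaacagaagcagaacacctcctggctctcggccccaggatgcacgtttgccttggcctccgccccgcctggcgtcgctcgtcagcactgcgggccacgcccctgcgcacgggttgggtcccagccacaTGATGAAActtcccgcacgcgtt
A match describes these letters and is neither a binding site nor a cause, and a window without one says nothing about ATF4.

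As a check of the labels, the gene targeted by the siRNA comes first. *Dj1* is listed as PARK7 (symbol Park7, probe ILMN_2728754), and its normalized log2 signal was 13.59, 13.37 and 13.63 in Scramble and 12.48, 12.49 and 12.15 in siDJ-1 myotubes. Every siDJ-1 array lay below every Scramble array, as the labels require. In limma Park7 fell by 1.16 with a standard error of 0.14 and an adjusted p of 0.00344. Signals here and below are background-corrected, quantile-normalized and on the log2 scale, and a probe is called changed at an adjusted p under 0.05 over all tested probes. A change written as "fell by" or "rose by" is on the log2 scale. With 3 arrays against 3, an exact permutation test cannot give a p below 0.1.

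Cell identity was checked against marker genes. Of 14 analysed myotube markers 13 were detected on all 6 arrays, while adipocyte and endothelial markers had 0 tested probes. Of 6 fibroblast markers 4 were detected on all arrays and Thy1 on none. Of 6 macrophage markers 1, Cd14, was detected on all arrays. Its probe and that of Cd68 were the 2 tested, and neither was called. Among 6 myoblast markers 4 were detected on all arrays and Pax7 on none.

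Of 25 tested myotube probes, 14 were called lower and 2 higher (median log2 fold change -0.52), and of the 23 detected on all arrays 13 and 1. The falls were not shared by all markers. Among those not called were Acta1 (-0.005), Ckm (-0.07), Myh3 (-0.17), Myog (0.22 and -0.11) and Mylpf (-0.19 and -0.21). The largest falls were on the probes of Myh1 (-1.93 and -2.19). The 2 called higher were probes of Ttn (1.77 and 0.76), of which other probes were called lower. The signal above background, summed over all 30 myotube probes, tested or not, was 299378, 289557 and 290536 in Scramble and 230569, 243589 and 211499 in siDJ-1 myotubes. It was lower on every knockdown array. The fibroblast sum, over 11 probes, was 12699, 13253 and 11869 against 6951, 9184 and 5192, with 3 of 6 tested probes called lower, and the myoblast sum, over 6 probes, was 8497, 8883 and 8621 against 7266, 7794 and 8138, with 1 of 4 called lower. In these bulk samples fewer cells of a type and less RNA per cell cannot be told apart, and the part of these shifts in the results on the ATF4 programme was not tested.

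Of the 18 probes of the group, 6 (33.3%) were called, against 30.1% of all tested probes. Probes called lower numbered 5, in ATF4 (2 probes), ATF5, CHAC1 and SHMT2, against 13.6% of all tested probes. Only 1 probe, in MTHFD2, was called higher, against 16.5%. This balance depends on the setting. It was 6 higher and 4 lower without background correction (6292 of all 17890 probes called) and 4 and 5 with a shift to a common 75th percentile (5403). With both it was 5 and 4 (6291), and with a trend in the prior variance 5 and 4 (6470). With a stricter filter (detection p below 0.01 on all arrays) it was 6 and 5 (5304 of 12962). Of all calls in these settings 50.1% to 60.7% were higher, beside 54.9% as reported. With 1 array left out the members gave 2 higher and 4 lower without siDJ-1 replicate 2, and 0 higher with 2 to 5 lower otherwise. Over all 17890 probes 2564 to 5290 were then called. Groups did not overlap for 11 of the 18 probes (61.1%), 6 of them higher and 5 lower after knockdown, against 48.5% of all tested probes. In the reported setting the share of called probes was thus close to that of the array as a whole. In the other settings above with all arrays it was higher than that of the array. The median log2 fold change of the 18 probes was 0.08 and that of all tested probes was 0.05, whereas the median size regardless of sign was 0.47 and 0.30. Within the group ATF4, ATF5 and CHAC1 were lower, and both DDIT3 probes and both MTHFD2 probes had positive fold changes.

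**Figure D1:**
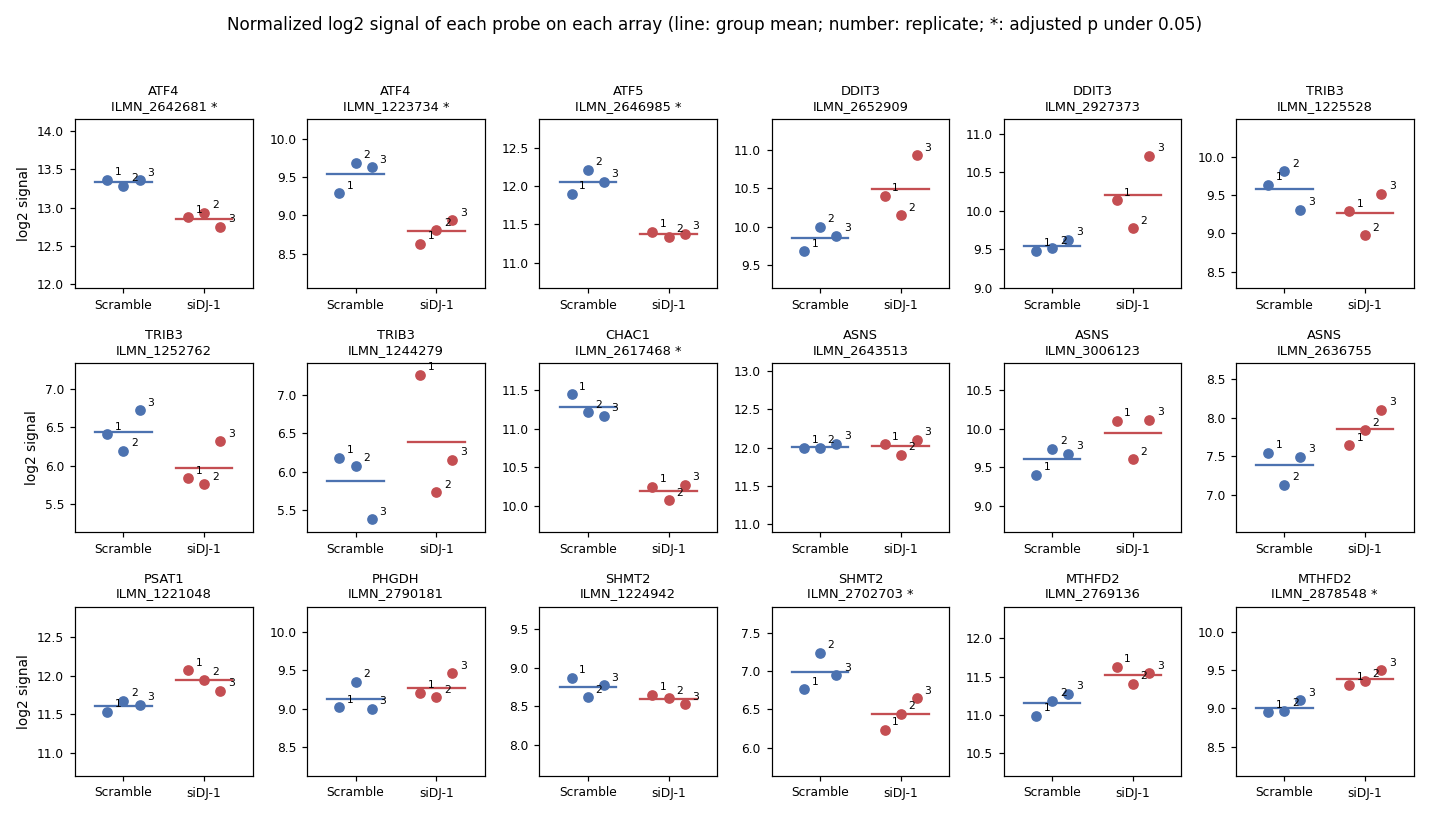
Normalized log2 signal (vertical axis) of each of the 18 probes on the 3 Scramble and the 3 siDJ-1 arrays. Points are arrays numbered by replicate, lines are group means, each panel has its own level, and an asterisk marks an adjusted p under 0.05; the groups are apart for both ATF4 probes, ATF5 and CHAC1, with siDJ-1 lower.

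The transcription factors come first. ATF4 was measured by 2 probes. On probe ILMN_2642681 the log2 signal was 13.36, 13.28 and 13.35 in Scramble and 12.87, 12.93 and 12.75 in siDJ-1 myotubes. On probe ILMN_1223734 it was 9.29, 9.68 and 9.63 in Scramble and 8.63, 8.81 and 8.94 in siDJ-1 myotubes. On both probes all 3 knockdown arrays were below all 3 control arrays, and on the first the gap between the groups was larger than the spread within either. On the second it was narrower than the spread of the Scramble arrays.

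The ATF4 transcript fell by 0.48 on the first probe, to 71.7% of the Scramble signal (95% confidence interval -0.71 to -0.25, adjusted p = 0.0137 from limma). It fell by 0.74 on the second, to 59.9% (95% confidence interval -1.09 to -0.39, adjusted p = 0.0125). A difference between the probes in their change was not detected (difference -0.26, 95% confidence interval -0.71 to 0.19, two-sided exact permutation p = 0.2). Without siDJ-1 replicate 1 the adjusted p was 0.0538 for the first probe and 0.0512 for the second, at log2 fold changes of -0.49 and -0.66, and without siDJ-1 replicate 3 that of the first probe was 0.0504 at -0.43. Over all alternatives the adjusted p began at 8.82e-05 for the first probe and 0.000609 for the second.

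ATF5, a close relative of ATF4 that is also controlled through eIF2α, was measured by 1 probe (ILMN_2646985), at 11.90, 12.21 and 12.06 in Scramble and 11.41, 11.34 and 11.38 in siDJ-1 myotubes. The knockdown arrays were all lower and lay close together. ATF5 fell by 0.68, to 62.4% of the Scramble signal (95% confidence interval -0.95 to -0.42, adjusted p = 0.00721 from limma).

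DDIT3, which encodes the death-promoting factor CHOP and is itself a target of ATF4, had positive fold changes that did not pass the threshold. On probe ILMN_2652909 the log2 signal was 9.68, 10.00 and 9.89 in Scramble and 10.40, 10.15 and 10.93 in siDJ-1 myotubes. On probe ILMN_2927373 it was 9.48, 9.51 and 9.62 in Scramble and 10.14, 9.77 and 10.72 in siDJ-1 myotubes. Both probes put every knockdown array above every control array, and both gave the same order among the knockdown arrays, with replicate 3 highest and replicate 2 lowest.

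The log2 fold changes of DDIT3 were 0.64 (standard error 0.21, 95% confidence interval 0.14 to 1.14, adjusted p = 0.0595 from limma) and 0.67 (standard error 0.23, 95% confidence interval 0.12 to 1.22, adjusted p = 0.068). The wide interval goes with the spread of the knockdown arrays. Without siDJ-1 replicate 2 both probes passed the threshold, at 0.81 (adjusted p = 0.0389) and 0.89 (adjusted p = 0.0297), and without siDJ-1 replicate 3 both were at 0.42. The adjusted p of the first probe ran from 0.00372 to 0.127 over the alternatives and that of the second from 0.00706 to 0.144.

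TRIB3 encodes a pseudokinase that ATF4 and CHOP induce and that restrains them in turn, and its 3 probes did not give one direction. Probe ILMN_1225528 was at 9.63, 9.81 and 9.31 in Scramble and 9.29, 8.98 and 9.52 in siDJ-1 myotubes (log2 fold change -0.32, adjusted p = 0.229 from limma). Its log2 fold change was -0.18 without siDJ-1 replicate 2 and -0.46 without Scramble replicate 3. Probe ILMN_1252762 was at 6.41, 6.19 and 6.72 against 5.83, 5.76 and 6.31 (log2 fold change -0.47, adjusted p = 0.117). Probe ILMN_1244279 was at 6.18, 6.08 and 5.38 against 7.26, 5.73 and 6.15 (log2 fold change 0.50, adjusted p = 0.389).

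The groups overlapped on all 3 TRIB3 probes. The positive value of the last one rests on siDJ-1 replicate 1, without which it was 0.06, and that probe was the only one of the 18 that missed detection on an array, Scramble replicate 3. The difference between the change on ILMN_1225528 and on ILMN_1244279 was -0.83 (95% confidence interval -1.68 to 0.02, two-sided exact permutation p = 0.1, adjusted p = 0.305 from limma). ILMN_1244279 exceeded ILMN_1252762 by 0.98 (95% confidence interval -0.21 to 2.16, two-sided exact permutation p = 0.2, adjusted p = 0.388 from limma). ILMN_1225528 exceeded ILMN_1252762 by 0.15 (95% confidence interval -0.47 to 0.77).

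CHAC1 encodes an enzyme that degrades glutathione and is a well-known target of ATF4. It had the largest change of the group, in either direction. Deposited signal on its probe (ILMN_2617468) was 2942, 2547 and 2325 in Scramble and 1346, 1335 and 1201 in siDJ-1 myotubes, and the normalized log2 signal was 11.45, 11.22 and 11.17 against 10.24, 10.07 and 10.27. The highest knockdown array was below the lowest control array by more than the whole spread of either group.

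CHAC1 fell by 1.08, to 47.3% of the Scramble signal (95% confidence interval -1.36 to -0.80, adjusted p = 0.0031 from limma). Only 2.4% of all tested probes had a lower log2 fold change. It was called under all 14 alternatives, as was ATF5.

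ASNS, the asparagine synthetase gene, carries the same element in its promoter, but none of its 3 probes was called. On probe ILMN_2643513 the log2 signal lay between 11.90 and 12.10 on all 6 arrays, a log2 fold change of 0.00 (95% confidence interval -0.23 to 0.24, adjusted p = 0.983 from limma), which was 0.14 with a shift to a common 75th percentile. Probe ILMN_3006123 gave 9.40, 9.74 and 9.68 against 10.10, 9.60 and 10.12, a log2 fold change of 0.33 (adjusted p = 0.192). Probe ILMN_2636755 gave 7.54, 7.13 and 7.49 against 7.64, 7.84 and 8.10, a log2 fold change of 0.47 (adjusted p = 0.0741, called in 2 of 14 alternatives). One of the 2 was without background correction, at a smaller 0.28 (adjusted p = 0.0458 from limma).

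The groups overlapped for the first 2 ASNS probes and not for the third. The third probe exceeded the first by 0.47 in its change (95% confidence interval 0.05 to 0.89, two-sided exact permutation p = 0.1, adjusted p = 0.236 from limma). Of the 10 pairs of probes that share one of the 10 genes, 0 differed at an adjusted p under 0.05 in limma (1 at an unadjusted p under 0.05), against 2.68% of all 6984 such pairs on the array. On simulated data this fit found no difference of a size at or just above the largest of those between these probes. It found most of a still larger one, which was tried after that was seen. The count of 0 thus does not show that probes of one gene agree.

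**Figure D2:**
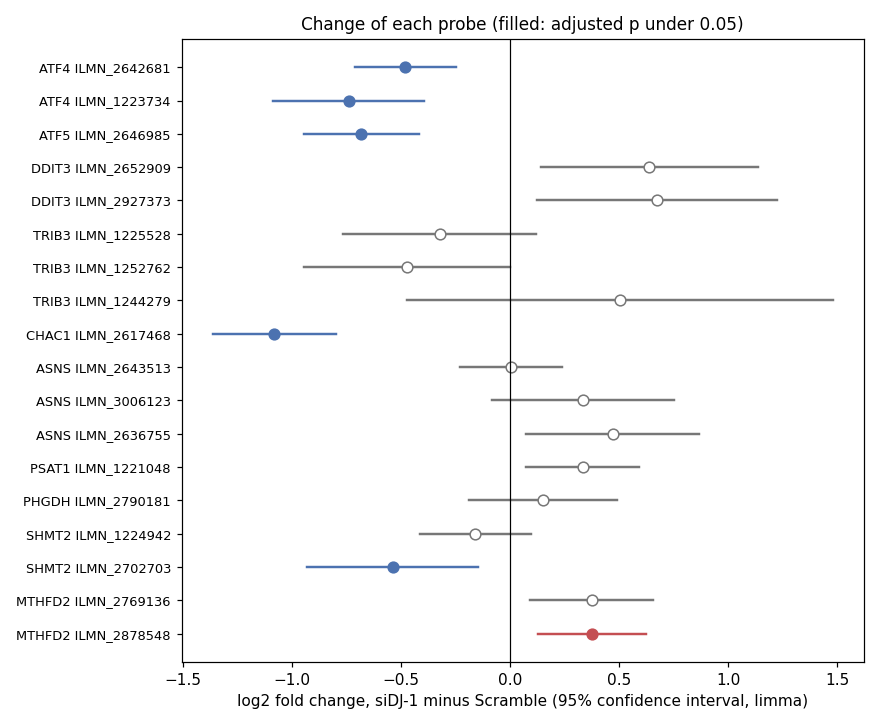
Log2 fold change of each of the 18 probes, siDJ-1 minus Scramble, with its 95% confidence interval from limma; filled points have an adjusted p under 0.05. CHAC1 at -1.08 lies lowest, and the 2 DDIT3 probes at 0.64 and 0.67 lie highest with wide intervals.

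The enzymes of serine and one-carbon metabolism followed. PHGDH catalyses the first step of serine synthesis from a glycolytic intermediate, and its probe (ILMN_2790181) was at 9.02, 9.35 and 8.99 in Scramble and 9.20, 9.15 and 9.46 in siDJ-1 myotubes. The groups overlapped (log2 fold change 0.15, 95% confidence interval -0.19 to 0.49, adjusted p = 0.458 from limma). The log2 fold change of PHGDH was 0.058 without siDJ-1 replicate 3 and 0.265 without Scramble replicate 2. PSAT1, the next enzyme, was at 11.53, 11.67 and 11.62 against 12.07, 11.95 and 11.80 on probe ILMN_1221048, with every knockdown array above every control array. Its log2 fold change was 0.33 (95% confidence interval 0.07 to 0.59, adjusted p = 0.0594), which missed the threshold. It was called in 6 of 14 alternatives, none of them with an array left out.

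SHMT2 splits serine into glycine and a one-carbon unit in mitochondria. Its probe ILMN_1224942 was at 8.87, 8.62 and 8.77 in Scramble and 8.65, 8.61 and 8.52 in siDJ-1 myotubes (log2 fold change -0.16, adjusted p = 0.294 from limma). Its probe ILMN_2702703 was at 6.76, 7.24 and 6.95 against 6.24, 6.45 and 6.64. The groups overlapped on the first probe and not on the second.

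The second SHMT2 probe fell by 0.54 with an adjusted p of 0.0478 in limma (95% confidence interval -0.93 to -0.15), and it was called in 5 of 14 alternatives. Without background correction its log2 fold change was -0.24 (adjusted p = 0.0575, of a range from 0.0212 to 0.149 over the alternatives), and it kept its call with 1 array left out only without Scramble replicate 1. Without siDJ-1 replicate 1 it was -0.44 and without Scramble replicate 2 it was -0.41, while without Scramble replicate 3, siDJ-1 replicate 2 or siDJ-1 replicate 3 it was -0.56, -0.54 and -0.64. A difference between the SHMT2 probes in their change was not detected (difference 0.38, 95% confidence interval -0.17 to 0.93, two-sided exact permutation p = 0.2).

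MTHFD2, the mitochondrial enzyme that oxidizes the one-carbon unit, was measured by 2 probes with nearly the same log2 fold change. Probe ILMN_2878548 was at 8.95, 8.97 and 9.11 in Scramble and 9.31, 9.35 and 9.50 in siDJ-1 myotubes. Probe ILMN_2769136 was at 10.99, 11.18 and 11.28 against 11.63, 11.40 and 11.54. The knockdown arrays were above the control arrays on both probes.

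The first MTHFD2 probe rose by 0.38, to 1.30 times the Scramble signal (standard error 0.10, adjusted p = 0.0362 in limma). The second was at 0.37 (standard error 0.12, adjusted p = 0.0542), on the other side of the threshold with the same size, and the change differed by -0.00 between them (95% confidence interval -0.34 to 0.34). The call of the first was lost with any 1 of the 6 arrays left out, where the log2 fold change lay between 0.32 and 0.43 and the adjusted p between 0.0502 and 0.111. The mean of the 2 probes was called (log2 fold change 0.37, adjusted p = 0.03).

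The rest of the pathway was taken from gene lists. For many genes the number of alternative settings, of up to 14, in which a probe was called stands beside its values. Of these settings 6 leave out 1 array each. The counts of each list stand against 16.5% of all tested probes called higher and 13.6% called lower. A probe detected in 1 group only enters the test through the group where it is brighter, which favours a call in that direction, and of 430 such probes 266 were called higher and 49 lower. Counts over probes detected on all 6 arrays, chosen after the data were seen, are free of this, and there 16.3% were called higher and 15.2% lower. Among 17 tested probes of serine and one-carbon enzymes, 6 of which belong to the members above, 3 were called higher and 4 lower, with a median log2 fold change of -0.16. Under each of the 3 other scalings (no background correction, a shift to a common 75th percentile, or both) 5 were called higher, with 2 to 4 lower, so these calls give the list no direction. Aldh1l2, the mitochondrial 10-formyltetrahydrofolate dehydrogenase, rose on both probes, by 0.68 and 0.43 (adjusted p of 0.034 and 0.0435 from limma). Each probe was called in 8 of 14 alternatives, and with 1 array left out only without siDJ-1 replicate 2. The cytosolic counterpart of SHMT2, Shmt1, fell by 0.52 (adjusted p = 0.0499, called in 4 of 14, as little as 0.19 over the alternatives), and with 1 array left out it was called only without siDJ-1 replicate 2. Thymidylate synthase, Tyms, which uses one-carbon units for DNA synthesis, fell by 1.23 on ILMN_2484707 (adjusted p = 0.00281), from 9.75, 9.69 and 9.79 to 8.47, 8.70 and 8.36, and by 0.65 on its other probe (adjusted p = 0.0296, called in 7 of 14, as little as 0.35 over the alternatives), which kept its call only without Scramble replicate 1 when 1 array was left out.

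The 2 probes of Mthfd1, the cytosolic trifunctional enzyme, were at -0.29 and -0.21 (adjusted p of 0.171 and 0.28), and the first was called only without Scramble replicate 1. Psph was detected on 0 of the 6 arrays and Mthfd1l was not analysed here. The calls of higher probes in this list were lost without siDJ-1 replicate 1, without siDJ-1 replicate 3 and without any 1 Scramble array. Called lower was 1 probe without Scramble replicate 2, Scramble replicate 3, siDJ-1 replicate 1 or siDJ-1 replicate 3, 2 without siDJ-1 replicate 2 and 6 without Scramble replicate 1.

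Among 21 tested probes of enzymes for asparagine, proline, aspartate, glutamate, alanine and cysteine, 1 was called higher and 2 lower (median 0.03). Aldh18a1, which starts proline synthesis, rose by 0.40 (adjusted p = 0.048 from limma, called in 7 of 14), and with 1 array left out it was called only without Scramble replicate 2. Bcat1, a branched-chain aminotransferase, fell by 1.04 (adjusted p = 0.00568), from 8.84, 9.33 and 9.06 to 7.89, 8.04 and 8.19, and Ass1, the argininosuccinate synthase, fell by 0.50 (adjusted p = 0.0109). Bcat1 was called under all 14 alternatives, and Ass1 lost its call only without siDJ-1 replicate 1.

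Upstream of ATF4, the kinases of eIF2α were lower where they could be measured. Eif2ak2 encodes PKR, the kinase for double-stranded RNA, which is itself an interferon-induced gene. Its log2 signal was 11.36, 11.72 and 11.63 in Scramble and 10.36, 10.39 and 9.96 in siDJ-1 myotubes, and the groups were far apart. It fell by 1.33 (standard error 0.16, adjusted p = 0.00356 from limma), to 39.8% of the Scramble signal, and was called under all 14 alternatives. Eif2ak1, the haem-regulated kinase, was at 9.05, 9.26 and 8.88 against 8.65, 8.56 and 8.31 and fell by 0.56 (standard error 0.14, adjusted p = 0.0297). It was called in 8 of 14 alternatives, and with 1 array left out only without Scramble replicate 3.

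The kinase genes Eif2ak3 (PERK) and Eif2ak4 (GCN2) were each detected on at most 1 array and were not tested. Of the 20 tested probes for these kinases, the phosphatase subunits and eIF2B, 4 were called lower and 0 higher by limma (0 higher at an unadjusted p under 0.05), with a median of -0.12. The other called genes were Dnajc3, an inhibitor of PKR and PERK, which fell by 0.85 (adjusted p = 0.00455, and by 0.52 without background correction), and the eIF2B subunit gene Eif2b4, which fell by 0.50 (adjusted p = 0.0186) and lost its call without siDJ-1 replicate 1 or 3. Ppp1r15a (GADD34), the stress-induced phosphatase subunit that ATF4 and CHOP switch on, was at -0.12 (adjusted p = 0.469). It is named outside the rule for named genes, after its value was seen. Without siDJ-1 replicate 1 or without siDJ-1 replicate 3, 2 probes of the list were called lower. Phosphorylation of eIF2α and the ATF4 protein were not analysed here.

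The dimer partners and regulators of ATF4 were mixed. Of 20 tested probes 4 were called higher and 2 lower (median 0.04), and of the 15 detected on all arrays 3 and 1. Cebpd rose by 1.00 (adjusted p = 0.00733 from limma), from 10.46, 9.95 and 10.29 to 11.29, 11.04 and 11.39. Nfe2l2 (NRF2) rose by 0.73 (adjusted p = 0.00918), and Btrc, part of the ubiquitin ligase that degrades ATF4 protein, rose by 0.71 on ILMN_3100042 (adjusted p = 0.00483), while its other probe, at 0.64, was not called (adjusted p = 0.169). Of the 2 probes of Cebpg, the usual partner of ATF4, the brighter one, detected on all 6 arrays, was at 0.28 without a call (adjusted p = 0.212), and its groups overlapped. The dim one rose by 0.74 (adjusted p = 0.0192) but was detected on 2 Scramble arrays, its log2 fold change was as low as 0.23 over the alternatives, and its call was lost without siDJ-1 replicate 1 or 3. Atf6b fell by 0.63 (adjusted p = 0.0104). Cebpa, detected on 1 siDJ-1 array, fell by 0.63 (adjusted p = 0.0236), was called in 4 of 13 alternatives and had a log2 fold change as small as -0.18 among them.

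The list of other known targets of ATF4 and CHOP leaves out the 10 genes and the amino acid transporters, whose calls went in both directions. This and the other lists were chosen with earlier results of these data known. Within the list the calls were in 1 direction. Of the 27 probes detected on all 6 arrays 11 (40.7%), in 9 genes, were called higher and 0 lower by limma, against 16.3% and 15.2% of all probes so detected, with a median log2 fold change of 0.35 beside 0.02. Of all 35 tested probes 15, in 10 genes, were called higher and 0 lower (0 lower at an unadjusted p under 0.05), 2 of the 15 detected in siDJ-1 alone, and the median log2 fold change was 0.39 beside 0.05 for all tested probes. The list is led by Bcl2l11, which encodes the cell death protein BIM, and its probe ILMN_3157568 was at 9.39, 8.69 and 9.02 in Scramble and 10.39, 10.36 and 10.64 in siDJ-1 myotubes. Bcl2l11 rose by 1.43 there (adjusted p = 0.00415) and by 1.49 on ILMN_2590638 (adjusted p = 0.00589, as little as 0.76 over the alternatives). Bbc3, which encodes the cell death protein PUMA, rose by 0.87 on ILMN_2920736 (adjusted p = 0.00423), from 9.43, 9.20 and 9.54 to 10.25, 10.27 and 10.26. The dim probes ILMN_1229255 of Bcl2l11 and ILMN_2690620 of Bbc3 missed detection on all Scramble arrays. They entered the test through the knockdown arrays alone, so their calls are not counted as support. The last Bbc3 probe, ILMN_2690621, detected on 3 arrays, was at 0.21 without a call (adjusted p = 0.748).

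These genes answer to other factors too, Bcl2l11 to FOXO factors and Bbc3 to p53. Of the 27 probes detected on all arrays, 5 (18.5%) were called higher without siDJ-1 replicate 1, where 7.35% of all probes so detected were, and 5 without siDJ-1 replicate 3 (7.87% of all). Without Scramble replicate 1, 2 or 3 or siDJ-1 replicate 2 it was 11, 8, 9 and 8 (15.8%, 11%, 11.7% and 11.8% of all). It was 7 without a filter (10.3% of all) and 9 with the replicate block (12.6% of all). In the other settings it was 12 to 16, beside 18.8% to 21.8% of all probes so detected. The 12 were of 25 left by the stricter filter. The number called lower was 0 in each of these settings. Over all 35 probes the number called higher went down to 5 with 1 array left out and to 8 without a filter. Over all tested probes it went from 2957 to 1392 without siDJ-1 replicate 1, which gave the 5, and to 1908 without a filter. The median of the list stayed between 0.34 and 0.46 with any 1 array left out and between 0.23 and 0.47 under the other scalings. The Bcl2l11 probes ILMN_3157568 and ILMN_2590638 and the Bbc3 probe ILMN_2920736 were called under every alternative that tested them. A difference between CHAC1 and this list was not tested.

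**Figure D3:**
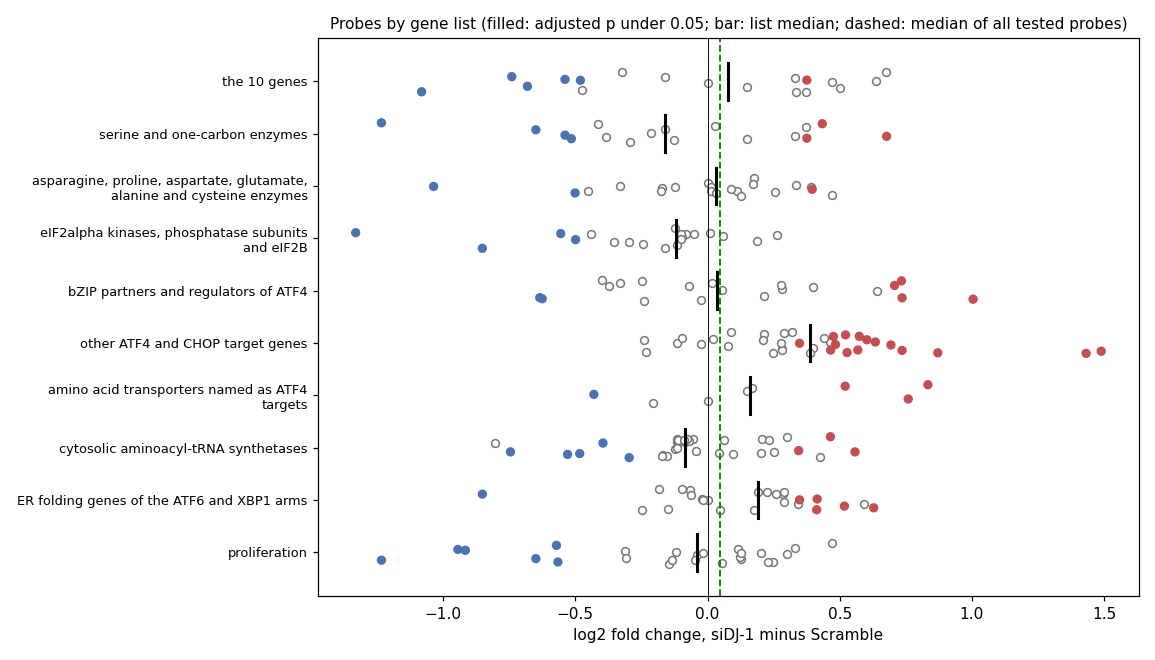
Log2 fold change, siDJ-1 minus Scramble, of every tested probe of the 10 genes and of 9 gene lists. Filled points have an adjusted p under 0.05, bars are list medians and the dashed line is the median of all tested probes (0.05); the bar of the other ATF4 and CHOP targets lies at 0.39 and that of the eIF2α kinase list at -0.12.

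Amino acid transport and tRNA charging were read in the same way. Of 8 tested probes of amino acid transporters 3 were called higher and 1 lower (median 0.16), and of the 7 detected on all arrays 2 and 1. Slc3a2, the heavy chain shared by several exchangers, rose by 0.83 (adjusted p = 0.0391 from limma), from 8.32, 7.96 and 7.55 to 8.80, 8.44 and 9.08. Slc43a1 rose by 0.52 (adjusted p = 0.0363, called in 5 of 14, as little as 0.22 over the alternatives). Its other probe, ILMN_2495194, missed detection on all Scramble arrays and entered the test through the knockdown arrays alone, so its call is not counted as support. Only a bound on its means can be given, 1.45-fold, which leaves out the spread between arrays and is no minimum. The bound sets the knockdown mean against the dimmest detected signal of each control array, or the probe's own signal where brighter. The 2 probes of Slc38a2, the starvation-induced neutral amino acid transporter, did not give one direction. ILMN_2955671 fell by 0.43 (adjusted p = 0.0211) and ILMN_1244123 was at 0.17 without a call (adjusted p = 0.372), both detected on all arrays. All 4 calls of the list were lost without siDJ-1 replicate 1 and without siDJ-1 replicate 3.

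Of 34 tested probes of aminoacyl-tRNA synthetases and the tRNA exporter Xpot, 3 were called higher and 5 lower (median -0.09). Under the 3 other scalings 4 or 5 were called higher and 1 to 6 lower, with 5 higher, 1 lower and a median of 0.01 for background correction with a shift to a common 75th percentile, so these calls give the list no direction. Xpot fell by 0.75 on ILMN_2503361 (adjusted p = 0.00595) and was at 0.04 on its dimmer probe (adjusted p = 0.843), Rars fell by 0.53 and 0.48 on its 2 probes (adjusted p of 0.0336 and 0.0353) and Tars fell by 0.40 on 1 probe (adjusted p = 0.0272) and was at -0.11 on the other (adjusted p = 0.74). The 2 probes of the lysine gene, listed as KARS, did not give one direction either. The dim one, ILMN_2648230, rose by 0.56 (adjusted p = 0.0138, as little as 0.31 over the alternatives), and the brighter one, ILMN_2606848, was at -0.12 without a call (adjusted p = 0.56). Qars rose by 0.46 and 0.34 on its 2 probes (adjusted p of 0.0381 and 0.0288). Among the called probes, that of Xpot was called under all 14 alternatives, and that of KARS lost its call only without siDJ-1 replicate 1. Those of Rars, Qars and Tars were called in 6 or 7 of 14, and each lost its call without siDJ-1 replicate 1 and without siDJ-1 replicate 3. Without siDJ-1 replicate 1 the counts were 0 higher and 1 lower.

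The other arms of the unfolded protein response were set beside ATF4. Of 25 tested probes of ER folding genes under ATF6 and XBP1, 5 were called higher and 1 lower (median 0.19, and 0.07 at the lowest under the other scalings, each with 7 higher and 1 lower). On 1 of its 3 probes Sel1l rose by 0.63 (adjusted p = 0.0216 from limma), and the other 2, at 0.59 and 0.00, were not called (adjusted p of 0.13 and 0.995). Dnajb9 rose by 0.52 on 1 probe (adjusted p = 0.047) and was at 0.29 on the other (adjusted p = 0.0821). Hsp90b1 rose by 0.41 (adjusted p = 0.0285). Ern1, the sensor IRE1α, rose by 0.41 on 1 probe (adjusted p = 0.0457) and was at -0.02 on the other, detected on 3 arrays (adjusted p = 0.958). The probe called lower was that of Dnajc3, at -0.85 (adjusted p = 0.00455 from limma), which the eIF2α kinase list above counts as well. It was called under all 14 alternatives. All calls of higher probes in this list were lost without siDJ-1 replicate 1, without siDJ-1 replicate 3 and without Scramble replicate 2.

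Of 25 tested proliferation probes, 6 were called lower and 0 higher by limma (4 higher at an unadjusted p under 0.05; 5 and 0 among the 21 detected on all arrays), with a median of -0.04 that was 0.07 without Scramble replicate 2. Up to 3 were called higher in other settings. Mcm5 fell by 0.94 (adjusted p = 0.0102), and Mcm3, detected on 1 siDJ-1 array, fell by 0.92 (adjusted p = 0.00947, as little as 0.28 over the alternatives). Tyms, given above, belongs to this list as well.

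**Figure D4:**
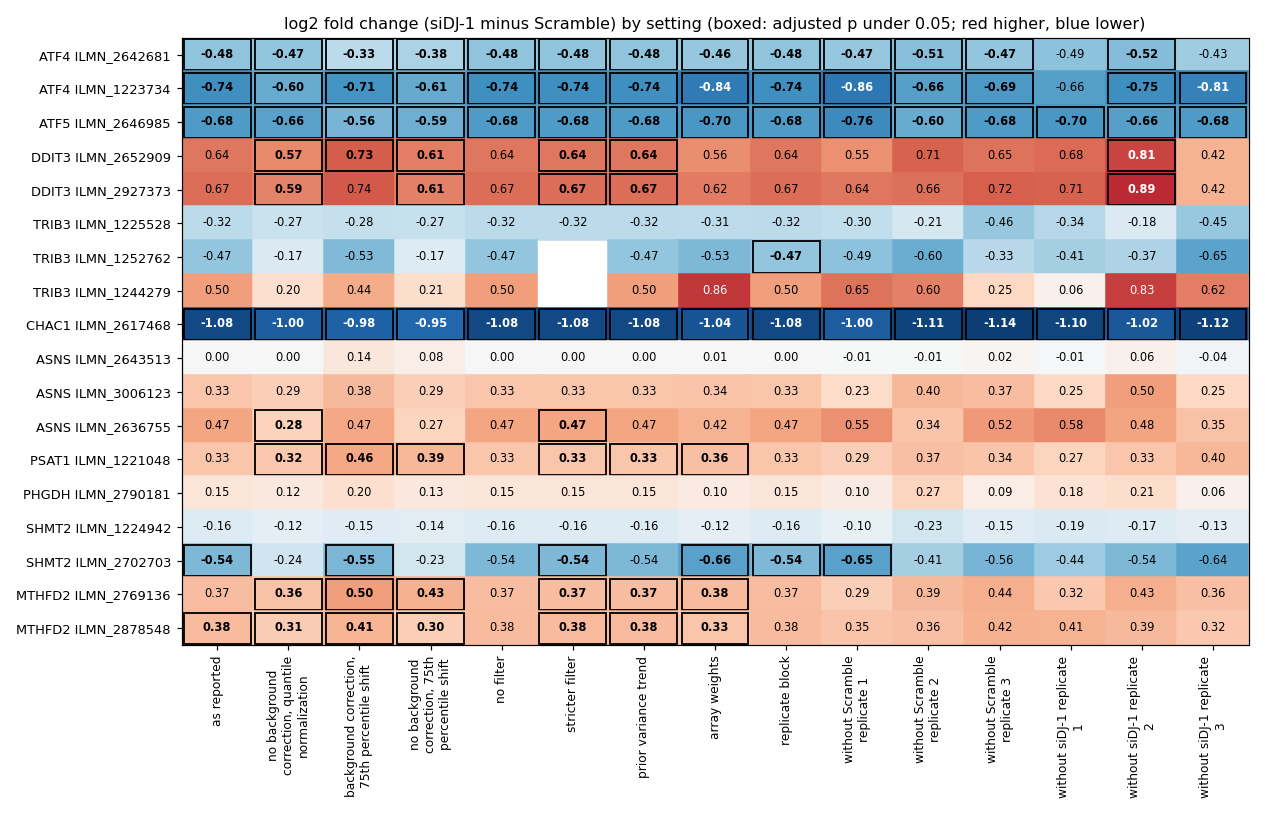
Log2 fold change, siDJ-1 minus Scramble, of the 18 probes (rows) as reported and under 14 other settings (columns), with red for higher and blue for lower in siDJ-1. A box marks an adjusted p under 0.05; ATF5 and CHAC1 are boxed in every column, and no MTHFD2 or PSAT1 probe is boxed with an array left out.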

How the data were processed

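The authors scanned 1 Illumina Mouse WG-6 V2 BeadChip and exported it from GenomeStudio. For 45281 probes on each of 6 arrays they deposited a mean signal intensity, its standard error, a bead count and a detection p-value. The authors neither normalized this intensity nor subtracted background. Samples were matched to columns by title.

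Values were computed in R 4.3.3 with limma 3.58.1 by neqc (normexp, negative controls inferred from the detection p, offset 16, quantile normalization, log2). The 17890 probes that passed the filter were fitted with lmFit and eBayes, siDJ-1 against Scramble. Benjamini-Hochberg adjustment covered every tested probe, at a threshold of 0.05. Differences between probes of one gene were fitted likewise over the 6984 pairs that share a listed name. Exact permutation tests were two-sided.

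A probe detected on exactly 3 arrays can pass the filter through its higher group alone. Of 1103 such probes 28.8% were called, and 430 were detected in 1 group only. The 18 probes of the 10 genes were each detected on 5 or 6 arrays. The fits were tested on simulated data, whose spread model was revised after its first outcomes were seen. In the version kept, more unchanged probes were called than the threshold allows, mostly probes detected on exactly 3 arrays, part of the changed probes was missed, and so were differences between probes, except large ones, which were tried after the first step had found none. Of the random seeds tried, the one kept found the most changed probes and gave the most false calls.

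Genes outside the 10 carry RefSeq symbols (GRCm38.p6), which 32345 probes matched by gene number or accession, and otherwise the listed name. No further probe of the 10 genes was found under another name. Named are all probes of the 10 genes, Park7, and in each list up to 4 called probes with the largest rise and up to 4 with the largest fall, with groups that do not overlap and detection on all arrays of a group. Eif2ak1 to Eif2ak4, Psph, Shmt1, Mthfd1 and Mthfd1l are named in any case. The members and lists were chosen with earlier results of these data known. Chosen after values had been seen were the family of probe pairs, the total over lists, the reading of the kinase group as the Eif2ak genes, the counts by number of arrays detected and over probes detected on all arrays, the promoter element and the promoters printed.

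Alternatives left out the background correction (with a floor of 1 for the signal), used a 75th percentile shift in place of quantile normalization, did both, dropped the filter, tightened it to 0.01 on all arrays, added a trend in the prior variance, array weights or a block for the replicate number, left out 1 array in turn, or averaged each gene's probes. Protein, flux and animal experiments were not analysed here.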

Additional observations from a re-analysis of the deposited data

How the results depend on the processing

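The fall of Park7, ATF5 and CHAC1 was called under all 14 alternatives, with log2 fold changes from -1.24 to -1.003, -0.76 to -0.56 and -1.14 to -0.95. Of the 18 probes, 4 to 6 were called lower with all arrays and 2 to 5 with 1 array left out, with the fewest without siDJ-1 replicate 1 and 3 without siDJ-1 replicate 3. The number called higher depended most on the setting. Against 1 as reported, it was 6 without background correction, 4 with a 75th percentile shift, 5 with both, 6 with the stricter filter, 5 with a trend in the prior variance, 3 with array weights, 0 without a filter and 0 to 2 with 1 array left out (limma). The probes added belong to DDIT3, PSAT1, MTHFD2 and ASNS and had a positive sign in every setting. The cause was not tested, except that no filter means 45281 probes tested and that leaving out an array means fewer samples.

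Over all tested probes 5387 were called, 3519 without a filter, 6292 without background correction, 6184 with array weights, 6470 with a trend in the prior variance and 2564 to 5290 with 1 array left out. Over the 9 lists together 54 probes were called (pathway lists), 27 without a filter, up to 65 in other settings with all arrays and 17 to 45 with 1 array left out. The pair differences gave 0 calls among the 10 genes in every setting run, and they were not run without a filter, with the trend, with array weights or with the block. ASNS on ILMN_2643513, at 0.0032 as reported, took values from -0.040 to 0.059 with 1 array left out and was negative in 4 of these 6. It moved most with the normalization, to 0.14 with a 75th percentile shift (adjusted p = 0.375) and 0.080 with both changes. The stricter filter left out 2 TRIB3 probes. Signal over background limits the dim probes of TRIB3 and SHMT2, where ILMN_1252762 went from -0.47 to -0.17 and ILMN_2702703 from -0.54 to -0.24 without background correction. ASNS on ILMN_2636755 went from 0.47 to 0.28 there.

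Samples with the same replicate number did not deviate together (correlations of 0.054, 0.047 and 0.02). The labels do not say whether equal numbers mark cultures that were handled together, and this was not tested. With the replicate block 4350 probes were called, 0 of the 18 higher (MTHFD2 on ILMN_2878548 at an adjusted p of 0.0559, of a range up to 0.111) and 6 lower. The added one was TRIB3 on ILMN_1252762 (adjusted p = 0.0382, of a range up to 0.277).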
